A study of Mus musculus with 6 samples.

Results

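The genes described here are 10 of the transforming growth factor beta (TGF-beta) family: the ligands Tgfb1, Tgfb2 and Tgfb3, the receptors Tgfbr1 and Tgfbr2, the activin beta subunits Inhba, Inhbb, Inhbc and Inhbe, and follistatin, Fst. The rule took them by name: every probe that was no control and whose gene name, or the current symbol of its accession, was one of the 10 was taken. This gave 15 of the 55681 probes of the array and 10 of the 34741 genes or design names these probes stood for. All 10 genes had at least 1 probe that passed the filter on dim probes, as did 18567 genes in all, and 12 of the 15 probes passed it.

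Liver RNA of male C3H/HeN mice aged 74 to 75 weeks was measured on Agilent arrays with 1 dye, in 3 normal livers and 3 liver tumors. The mice were F2 offspring of the control group of an arsenic project, fed a standard diet, and the tumors carried a Ha-ras mutation according to the study's methods. The study compared normal with tumor tissue to relate gene expression to DNA methylation. The labels number the samples of each group 1 to 3 and do not say that they came from separate animals, so the p-values measure the spread between these samples. Expression is given as signal intensity over the 75th percentile of its array, without unit, and every log2 difference is liver tumor minus normal liver.

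TGF-beta ligands are secreted in a latent form, are released from it outside the cell, and bind TGFBR2, which then recruits and phosphorylates TGFBR1. Activins are dimers of inhibin beta subunits, signal through their own receptors to the same Smad2 and Smad3, and are bound and blocked by follistatin. In the liver, TGF-beta is known as a brake on hepatocyte growth and as a driver of collagen production by stellate cells, and Inhbc and Inhbe are known as subunits made mainly by hepatocytes.

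The arrays of a group were alike, with correlations of log2 values over all tested probes from 0.989 to 0.992 among normal livers and from 0.980 to 0.990 among tumors, against 0.914 to 0.950 between the groups. The normal livers were on 1 slide and the tumors on another, and the local background of a spot had a median of 42 to 45 on the first slide and of 22 to 23 on the second, so slide and group cannot be told apart. From 42.7% to 46.7% of spots were well above background and none was saturated. The hepatocyte gene Alb differed by -0.06 on the log2 scale and the summed expression of 9 hepatocyte markers was 7713 to 8345 in normal livers and 7571 to 7956 in tumors. Beside the marker counts that follow, 13.1% of all genes tested were called higher and 21.0% lower (limma adjusted p under 0.05). Stellate cell and fibroblast markers fell for 9 of 10 genes and Reln rose. Their sum was 179 to 203 in normal livers and 38.3 to 86.5 in tumors. Most of that sum was Dcn and Ecm1. Of 9 macrophage markers 5 fell and Cd14 rose, with a sum of 107 to 180 against 65 to 103. For 8 endothelial markers, of which 2 fell (Stab2 and Clec4g), the sums were 108 to 122 and 84.6 to 93.6. Dimmer Stab2 probes, with log2 differences of 0.09 and 0.02, were not called. No cholangiocyte, neutrophil or platelet marker was called, with 4, 4 and 2 tested, and their sums were 1.76 to 2.32 against 1.45 to 1.62, 6.1 to 8.11 against 5.7 to 18.4 and 0.626 to 1.03 against 0.603 to 1.05. Of 4 lymphocyte markers tested, Cd4 rose by 1 probe and fell by the other, and the sum was 69.5 to 73.5 against 144 to 248. Nearly all of that sum was the first Cd4 probe, and without Cd4 it was at most 12.6 in normal livers and at most 12.3 in tumors. In these lists Cd8a, Mpo, Gp9, Gp1bb and Ppbp were not well above background on any array and all other markers were on at least 1. In whole tissue, fewer cells of a type and less RNA per cell cannot be told apart, and the part of these marker changes in the results that follow was not tested.

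Tgfb1 and Tgfb2 code for closely related proteins, so the 60-base probes that measured them are shown with the stretch that aligns between them in capitals. Both lie in the coding sequence, and 28 of the 41 aligned bases were identical, or 68.3%. On the array design's build, mm9, the Tgfb1 probe lies at chr7:26489877-26489936 on the plus strand and the Tgfb2 probe at chr1:188449333-188449392 on the minus strand.
Tgfb1 probe: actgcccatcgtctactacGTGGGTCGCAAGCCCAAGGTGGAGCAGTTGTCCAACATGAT
Tgfb2 probe: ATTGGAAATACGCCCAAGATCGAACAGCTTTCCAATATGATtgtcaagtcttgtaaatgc

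Among the 10 genes, 4 were higher in tumors at an adjusted p under 0.05 by limma (Tgfb2, Tgfbr2, Inhbb and Fst), 1 was lower (Inhbc) and 5 were not called. Over all genes tested, 13.1% were called higher and 21.0% lower. The groups did not overlap for 7 of the 10 genes, the 5 called and Tgfb1 and Tgfbr1, while 51.8% of all genes tested had groups that did not overlap. The median log2 difference was 0.44 over the 10 genes and -0.13 over all genes tested. With 3 samples in each group an exact two-sided permutation test cannot give a p below 0.1, the value it gave for each of these 7 genes.

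**Figure D1:**
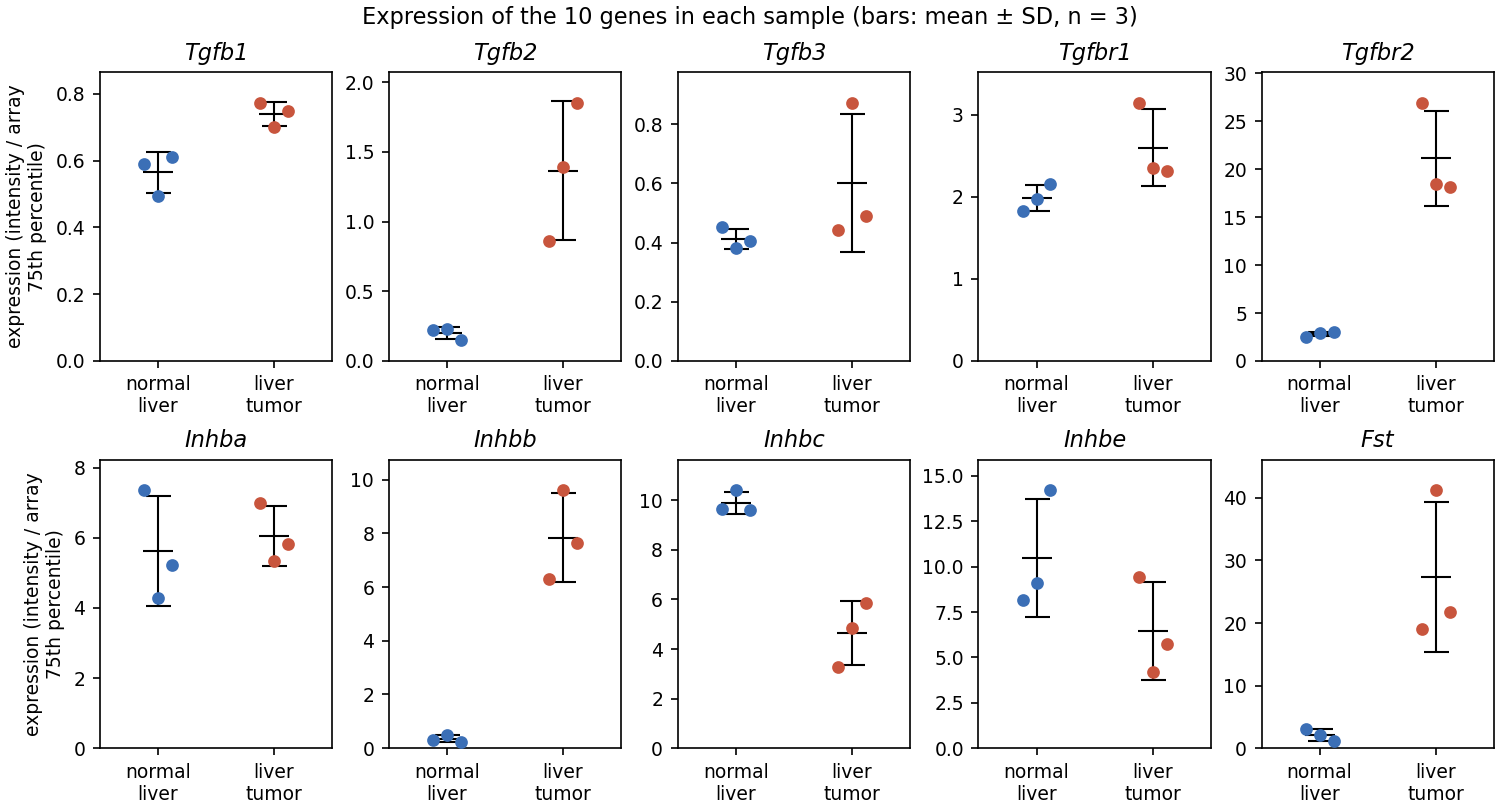
Expression of each of the 10 genes (signal over the 75th percentile of its array, linear axis from 0, a scale of its own per panel) in 3 normal livers (blue) and 3 liver tumors (red), with the mean and SD as black bars. Tgfb2, Tgfbr2, Inhbb and Fst lie far above, and Inhbc below, the normal livers in every tumor, while the groups overlap for Tgfb3, Inhba and Inhbe.

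Of the 3 TGF-beta ligands, Tgfb2 was the one called higher. Tgfb2, at chr1:186622787-186709697 (GRCm38.p6, as are all gene positions here), is the isoform known best from development and from the eye and heart. Its expression was 0.22, 0.227 and 0.15 in the normal livers and 0.86, 1.39 and 1.85 in the tumors. Every tumor lay above every normal liver, and the tumors differed more among themselves than the normal livers did. The log2 difference was 2.73 ± 0.31 (SE, n = 3 per group), or 6.64-fold, with a limma adjusted p of 0.002. The normal values lay near the dimmest signals that were well above background on their arrays. With normexp background correction, which adds an offset, the log2 difference was 1.38 (limma adjusted p = 0.00114). The size of this rise is less certain than its direction. A second probe, whose start lies 1799 bases from that of the first on mm9, stood well above background in no normal liver but in all tumors, at 0.348, 0.414 and 0.47. By that probe Tgfb2 was at least 3.14-fold higher in tumors. The probe passed the filter through the tumors alone, so no p-value is given for it.

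Tgfb1, the most studied isoform, known in immune regulation and fibrosis, lies at chr7:25687002-25705077. It gave 0.589, 0.495 and 0.61 in normal livers and 0.772, 0.701 and 0.748 in tumors. The groups lay apart, but by much less than those of Tgfb2. The log2 difference was 0.40 ± 0.12 and the limma adjusted p of 0.0501 missed the threshold. Its limma adjusted p was 0.0486 under quantile normalization, 0.0274 with the percentile taken over probes well above background, 0.0428 with the stricter filter and 0.0451 with averaged probes. It was 0.108 with spike-in scaling, 0.148 with normexp correction and 0.0665 to 0.151 when 1 array was left out. Of 20 other analyses, 6 called Tgfb1, some of them at an unadjusted p, and 14 did not. Tgfb3, at chr12:86056743-86079041, ranged from 0.383 to 0.451 in normal livers and from 0.443 to 0.871 in tumors, and was not called (log2 difference 0.48 ± 0.26, limma adjusted p = 0.204). One tumor, replicate 2, held its high value, and the other tumors lay at 0.443 and 0.49.

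The receptors differed from each other in the size of their change. Tgfbr2, the receptor that binds the ligand first, lies at chr9:116087695-116175363. Its expression was 2.53, 2.88 and 3.01 in normal livers and 26.9, 18.5 and 18.1 in tumors. All tumors stood several times above the normal livers, with replicate 1 the highest. The log2 difference was 2.89 ± 0.18, or 7.42-fold, with a limma adjusted p of 0.000263. A second Tgfbr2 probe, 2341 bases away on mm9, was well above background in 2 normal livers and all tumors. It gave a log2 difference of 2.72 ± 0.31. This probe passed the filter through the tumors alone, so no p-value is given for it. Tgfbr1, the kinase that phosphorylates Smad2 and Smad3, lies at chr4:47353222-47414926. It gave 1.83, 1.97 and 2.15 in normal livers and 3.14, 2.35 and 2.31 in tumors. The groups did not overlap, but the lowest tumor was close to the highest normal liver, and the log2 difference of 0.38 ± 0.16 was not called (limma adjusted p = 0.109). The other 3 Tgfbr1 probes did not pass the filter and were not tested. One of them was well above background in 1 normal liver and 2 tumors and the others on no array.

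The activin subunits moved in both directions. Inhbb, the beta B subunit of activin B, at chr1:119415463-119422248, had the largest log2 difference of the 10 genes. Its expression was 0.317, 0.501 and 0.246 in normal livers and 6.31, 9.6 and 7.63 in tumors. The lowest tumor stood far above the highest normal liver. The log2 difference was 4.51 ± 0.29, or 22.8-fold, with a limma adjusted p of 0.000267, and 3.38 with normexp background correction. Inhba, the beta A subunit of activin A, at chr13:16004256-16031609, was 7.35, 4.29 and 5.22 in normal livers and 7, 5.34 and 5.81 in tumors. These values overlapped throughout, and the log2 difference was 0.13 ± 0.22 (limma adjusted p = 0.677).

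Inhbc and Inhbe, the hepatocyte subunits, lie side by side at chr10:127356322-127370548 and chr10:127349402-127351848, with 4473 bases between them. Inhbc gave 9.65, 10.4 and 9.61 in normal livers and 3.26, 4.84 and 5.84 in tumors. It was lower in every tumor, and the log2 difference was -1.13 ± 0.22, a fall of 2.19-fold, with a limma adjusted p of 0.0107. Inhbe gave 8.17, 9.08 and 14.2 in normal livers and 9.43, 4.2 and 5.73 in tumors. Tumor replicate 1 lay among the normal livers and the other tumors below them, and the log2 difference of -0.74 ± 0.34 was not called (limma adjusted p = 0.143). Without that tumor it was -1.05 with a limma adjusted p of 0.0425. The difference between the changes of these neighbours was not tested. Of 9 hepatocyte markers, Asgr1 and Cps1 were lower, 1.82-fold and 2.78-fold, Apoa1 was higher, 1.86-fold, and 6 were not called, among them Alb (-0.06), Ttr (-0.02) and Apob (-0.11 on the log2 scale), against the 21.0% of all genes called lower. A second, dimmer Apob probe was called higher, with a log2 difference of 0.55 (limma adjusted p = 0.0455).

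Fst, which binds activins and keeps them from their receptors, lies at chr13:114452262-114458989. Its expression was 3.07, 2.07 and 1.15 in normal livers and 19.1, 41.2 and 21.8 in tumors. All tumors were above all normal livers, with tumor replicate 2 about as far above the other tumors, on the linear scale, as these were above the normal livers. The log2 difference was 3.73 ± 0.43, or 13.3-fold, with a limma adjusted p of 0.00214. Inhbb and its antagonist were thus both higher in all 3 tumors.

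**Figure D2:**
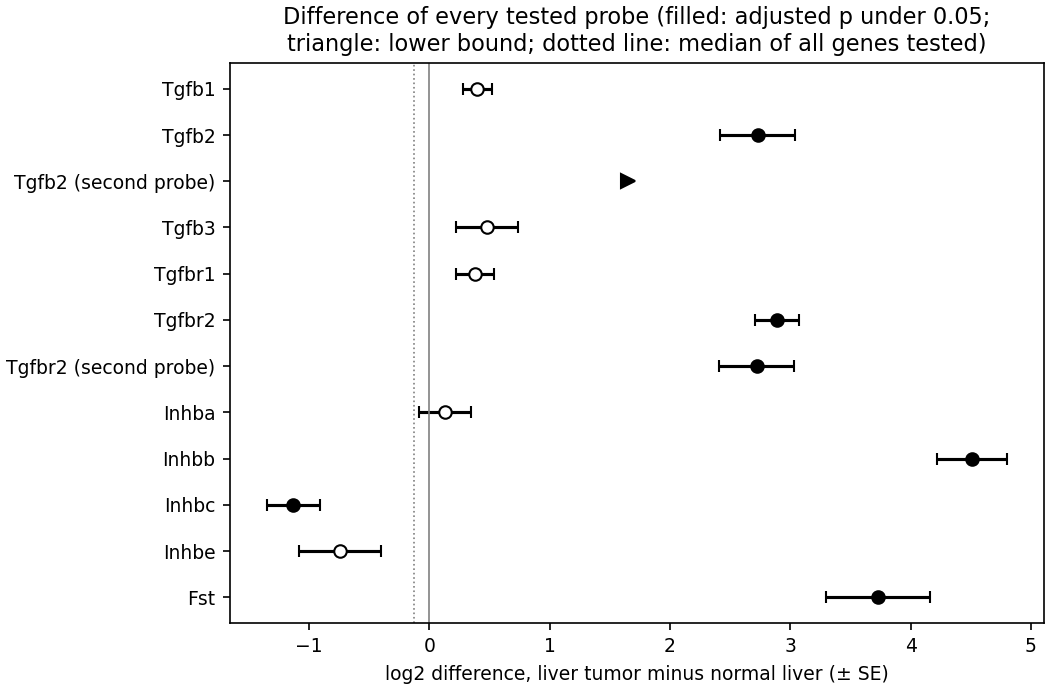
Log2 difference, liver tumor minus normal liver, of the 12 tested probes with the standard error of the limma fit as bars (n = 3 per group, filled where the adjusted p was under 0.05). Both probes of Tgfbr2 lie at 2.72 and 2.89, the first probe of Tgfb2 lies at 2.73, Inhbb at 4.51 and Inhbc at -1.13, and a triangle marks the lower bound of 1.65 of the second Tgfb2 probe, for which no normal liver was well above background. The dotted line is the median of all genes tested, -0.13.

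The tumors were not ordered alike across the genes. Tumor replicate 1 had the highest value of the 3 tumors for Tgfb1, Tgfbr1, Tgfbr2, Inhba and Inhbe, and the lowest for Tgfb2, Tgfb3, Inhbb, Inhbc and Fst. In the same tumor the stellate cell marker sum, mostly Dcn and Ecm1, was the lowest of the 3, at 38.3.

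The expression pattern of Inhbb over the 6 arrays, each gene centred on its normal-liver mean, was set against 16513 other genes, each by its brightest probe among those well above background on all arrays. The nearest were Drc1, at a root mean square distance of 0.29 on the log2 scale, and Pde6c, at 0.32, with log2 differences of 4.33 and 4.91. The next 2, both at 0.43, were probes without a gene symbol. A small distance here mainly reflects a like difference between the groups, and does not show that genes vary together within a group.

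Because Tgfb2, Tgfbr2 and Inhbb rose together, the 250 bases before their RefSeq transcription starts are shown from the GRCm38.p6 promoter table, which held windows for 8 of the 10 genes but none for Fst or Tgfb3. Capitals mark matches on either strand to 6 short motifs: the TATA box TATAAA, the GC box GGGCGG, the E-box CACGTG, the AP-1 site TGACTCA, the letters TGACG, part of the cAMP response element, and the CCAAT box. The windows are chr1:186705990-186706239, chr9:116175364-116175613 and chr1:119422249-119422498, all on the minus strand. That of Tgfb2 lies 3458 bases inside the outer end of the annotated gene, whose span reaches further upstream than this start.
Tgfb2: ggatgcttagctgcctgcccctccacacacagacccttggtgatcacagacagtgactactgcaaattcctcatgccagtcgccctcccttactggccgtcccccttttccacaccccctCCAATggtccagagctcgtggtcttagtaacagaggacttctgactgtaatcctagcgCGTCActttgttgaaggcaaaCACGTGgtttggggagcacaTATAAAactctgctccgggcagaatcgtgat
Tgfbr2: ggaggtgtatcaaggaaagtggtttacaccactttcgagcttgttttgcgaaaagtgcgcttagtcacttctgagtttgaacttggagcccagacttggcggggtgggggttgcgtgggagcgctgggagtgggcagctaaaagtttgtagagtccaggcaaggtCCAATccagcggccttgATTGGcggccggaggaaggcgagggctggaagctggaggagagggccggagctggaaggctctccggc
Inhbb: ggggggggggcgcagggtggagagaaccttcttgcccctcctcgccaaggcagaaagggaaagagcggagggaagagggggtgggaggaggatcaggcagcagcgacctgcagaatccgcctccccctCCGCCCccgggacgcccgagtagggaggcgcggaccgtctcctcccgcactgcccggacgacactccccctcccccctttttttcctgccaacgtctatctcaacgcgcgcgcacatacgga

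The windows shared none of these motifs across all 3 genes. Tgfb2 held 1 TATA box, 1 E-box, 1 TGACG and 1 CCAAT box, motifs found in 12.4%, 6.02%, 17.8% and 33.8% of the 32851 windows in the table. Tgfbr2 held 2 CCAAT boxes and no TATA box. Inhbb held 1 GC box, found in 32.7% of windows, and had the highest GC content, 68%, against 58.4% for Tgfbr2 and 53.6% for Tgfb2. The AP-1 letters, found in 4.46% of windows, were in none of the 3.

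Of 57 other genes of the pathway, 47 were tested, 8 were called higher and 5 lower, against the same 13.1% and 21.0% of all genes. The 10 that were not tested were Thbs1, Itgb6, Itgb8, Acvr1c, Inha, Gdf11, Mstn, Lefty1, Bambi and Ski. The median log2 difference of the 47 was 0.03. The counts of the single lists below stand against the same shares of all genes.

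Genes that store or activate latent TGF-beta changed in both directions, 1 higher and 2 lower of 8 tested. Ltbp1 and Ltbp2, matrix proteins of which LTBP1 holds the latent ligand, fell by 1.48 (limma adjusted p = 0.032) and 1.04 (0.0305) on the log2 scale. Ltbp1 was 0.218 to 0.259 in normal livers and 0.0482 to 0.156 in tumors, of which 1 was well above background. Furin, a protease that cuts the precursors of these ligands, was 24.2 to 25.6 in normal livers and 31.5 to 38.8 in tumors, a log2 difference of 0.53 (0.0207). Among the other receptors and co-receptors, 1 of 8 was called: Acvr2b, a type II activin receptor, was 6.11 to 9.78 in normal livers and 3.42 to 4.17 in tumors, a log2 difference of -1.02 (0.0103). Acvr2a (-0.11), Acvr1b (0.36), Tgfbr3 (-0.07) and Eng (-0.10) were not called. Of 3 tested genes among other ligands and antagonists, Nodal, a ligand of early development, rose by a log2 difference of 1.10 (0.00221), and the follistatin relative Fstl3 was not called (0.22).

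Of 13 Smads and regulators, 2 were higher and 2 lower. Smad3, which carries the TGF-beta and activin signal to the nucleus, was 3.91 to 4.9 in normal livers and 6.32 to 8.24 in tumors, a log2 difference of 0.76 (limma adjusted p = 0.012). Smad7, the inhibitory Smad that TGF-beta itself induces, was 0.876 to 1.62 in normal livers and 0.614 to 0.646 in tumors, a log2 difference of -0.95 (0.0208). Tgif1, a corepressor of Smads, rose by 0.81 on the log2 scale (0.03), and Zfyve9, which presents Smads to the receptor, fell by 0.45 (0.0167). Smad2 (0.38) and Smad4 (-0.15) were not called. Of the 3 tested probes of Smurf2, a ubiquitin ligase, the brightest was not called and another fell by 0.43 (0.0268).

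Among 15 known TGF-beta target genes 4 were called (Cdkn2b, Id1, Col1a1 and Ccn2), each of them higher, and 11 were not. Over all genes tested, 13.1% were called higher and 21.0% lower. The median log2 difference of the 15 was 0.39. Cdkn2b, the cell cycle inhibitor p15, was 0.188, 0.24 and 0.143 in normal livers and 24.2, 19 and 16.3 in tumors, a log2 difference of 6.72 ± 0.23 (limma adjusted p = 3.32e-05). A second Cdkn2b probe was well above background in no normal liver but in all tumors. By that probe the log2 difference was at least 4.24, so the size of the rise is less certain than its direction. The rise of Cdkn2b was already known from earlier results on these data. Id1, a dominant-negative transcription regulator that BMP signals raise, had a log2 difference of 2.49 (0.0151). Col1a1, a chain of type I collagen, was 0.372 to 0.908 in normal livers and 1.5 to 2.19 in tumors, a log2 difference of 1.58 (0.0154). Its partner chain Col1a2 (0.53), Col3a1 (0.29), Acta2 (1.15), Tgfbi (-0.30) and the early target Klf10 (0.39) were not called. Ccn2, a secreted matrix protein long known as connective tissue growth factor, was 1.64 to 2.57 in normal livers and 3.75 to 4.51 in tumors, a log2 difference of 0.98 (0.0106). Smad7 and Pmepa1, targets counted among the regulators, had log2 differences of -0.95 and -0.61, the latter not called. Skil, also among the regulators, went the other way, with a log2 difference of 0.50 (limma adjusted p = 0.0617, not called). In the same tumors 9 of 10 markers of stellate cells and fibroblasts, which produce collagen, were lower and Reln was higher (log2 difference 0.72), and the median log2 difference of the list was -1.44.

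**Figure D3:**
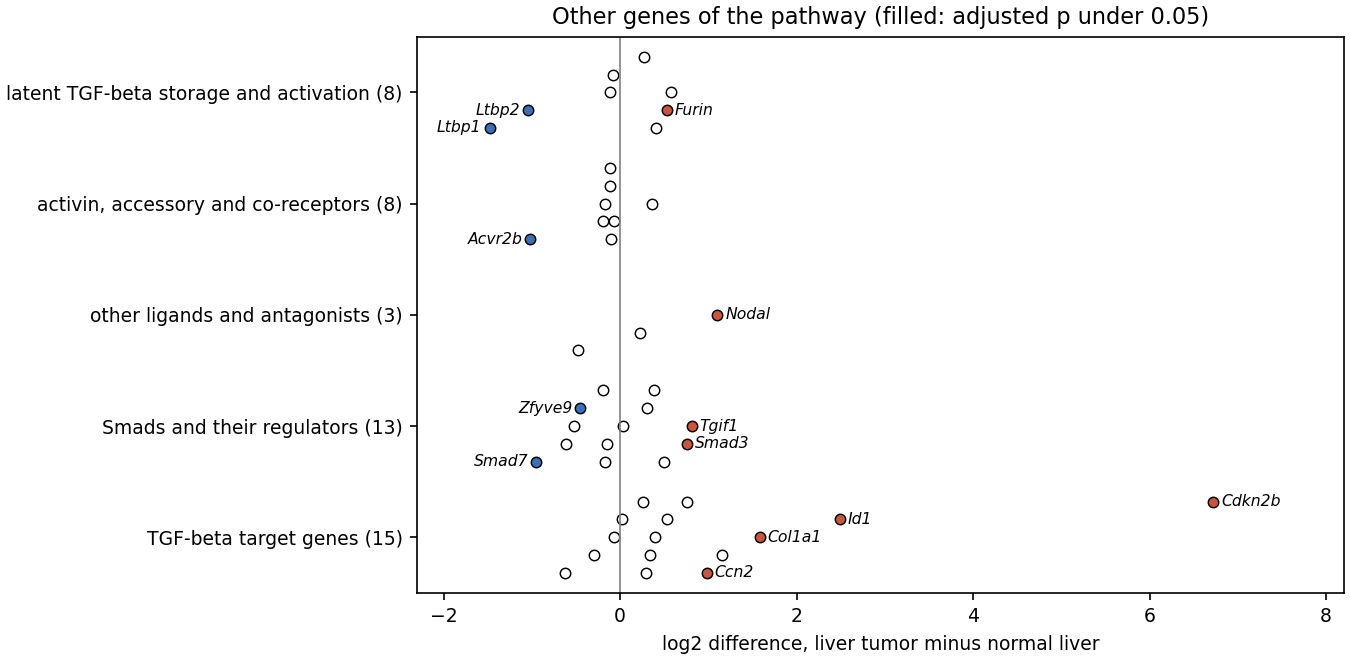
Log2 difference, liver tumor minus normal liver, of the 47 tested genes of 5 pathway lists, with the number tested in each list in brackets (filled where the limma adjusted p was under 0.05, red for higher and blue for lower). The target genes reach 6.72 for Cdkn2b, while all genes of the other lists lie between -1.48 and 1.10.

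The direction of the 5 called genes held in every other analysis of these arrays. The log2 difference ranged from 2.71 to 3.06 for Tgfbr2, from 3.35 to 4.06 for Fst and from -1.31 to -0.89 for Inhbc. It ranged from 1.38 to 3.03 for Tgfb2 and from 3.38 to 4.79 for Inhbb, and both lowest values came from normexp background correction. The share of all called genes that were higher was 38.5%, but it was 61% with spike-in scaling and 51.9% with the percentile taken over probes well above background. These scalings moved the median of all genes from -0.13 to 0.04 and -0.01.

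**Figure D4:**
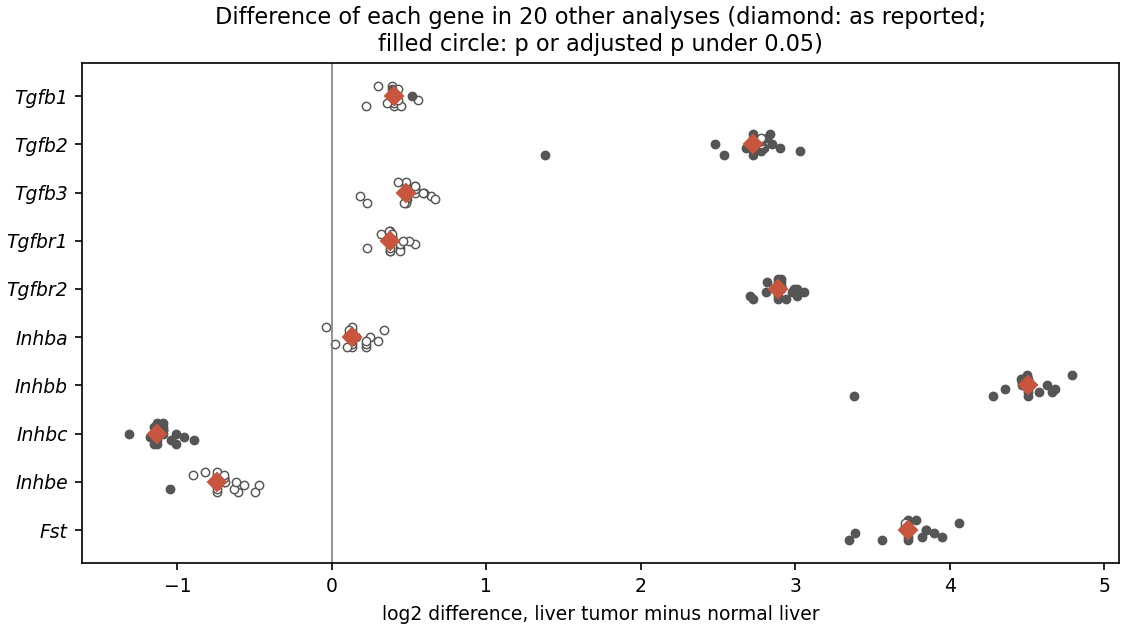
Log2 difference, liver tumor minus normal liver, of the 10 genes as reported (diamonds) and in 20 other analyses (circles, filled where the p or adjusted p used was under 0.05). Inhba is the gene with a value on the other side of 0, at -0.04, and Tgfb2 and Inhbb each have 1 value well below the rest, at 1.38 and 3.38.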

How the data were processed

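Total RNA of 3 normal livers and 3 liver tumors was hybridised to 6 SurePrint G3 Mouse arrays. The authors deposited the Feature Extraction output of each array (version 10.7.3.1 per the file headers, 12.0.3.1 in the submitters' processing notes), in which a spot's processed signal intensity has its background removed and spatial trends corrected. They also deposited a table of the ratio of that signal to its array's 75th percentile, which equalled the value recomputed here within 0.01 for 98.64% of spots and was tried in place of the intensities.

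Each deposited intensity was divided by the 75th percentile of its array and put on the log2 scale. Control and outlier spots were left out, spots of a probe were averaged, and probes well above background (at least 0.5 of their spots) on all 3 arrays of a group were tested with limma 3.58.1 (lmFit, eBayes; R 4.3.3) in a two-sided test, with p-values adjusted by Benjamini-Hochberg over all 24901 probes and a threshold of 0.05. For genes with several tested probes, the brightest on average stood for the gene. If no array of a group had the probe well above background, the fold is a lower bound, taken against the lowest such signal of each array or the probe's own, whichever was higher. Names came from RefSeq (GRCm38.p6) for 27235 probes by accession, 3581 by symbol and 565 by synonym, and from the array design for 24300. The number of arrays limits the precision. Tables were made in Python 3.11.15 (pandas 2.3.3, numpy 2.4.6) and figures with matplotlib 3.10.9, and the fit was tested on simulated data.

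The genes and the pathway and marker lists were chosen with earlier results of these data known. Named are the 10 genes, up to 4 called genes with the largest change per pathway list, and the 4 genes nearest to Inhbb. One gene of the target list is not reported here and was left out of the list's counts. Genes named beyond this rule were chosen after their values were seen. Alternatives were normexp correction with an offset of 50, quantile normalization, other scalings and filters, the deposited ratios, the replicate block, a trended eBayes, averaging each gene's probes, the methods' t-test, and leaving out each array.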

Additional observations from a re-analysis of the deposited data

How the results depend on the processing

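Tgfb2, Tgfbr2, Inhbb and Fst were called higher and Inhbc lower under normexp, quantile, spike-in and the other percentile scaling, both other filters, the deposited ratios, the trend and averaged probes, and Tgfb1 joined them under quantile and the other percentile scaling, the stricter filter and averaged probes. Over all genes 6346 were called, 3893 with spike-in scaling, 3510 without the filter on dim probes and 4135 by the methods' t-test, unpaired and adjusted. Under those settings 2, 1 and 1 pathway genes were lower, in place of 5, and without the filter 5 pathway genes were higher, in place of 8, since Furin, Smad3 and Tgif1 were no longer called. The adjusted unpaired t-test called 2 of the 10 genes higher, Tgfbr2 and Inhbb, since Tgfb2 (adjusted p = 0.0605) and Fst (0.0751) missed the threshold. The paired form of the methods' t-test called 0 genes in each of the 5 counts after adjustment, and 5767 genes at an unadjusted p under 0.05, with 4 pathway genes higher and 3 of the 10 genes, since Tgfb2 and Fst missed the threshold, Tgfb1 was called and Tgfbr2 and Inhbb stayed called. The unpaired form called 7755 unadjusted. Leaving out 1 array at a time gave 3872 to 5533 calls over all genes, 4 of the 10 genes higher each time and 1 to 2 lower, and 6 to 8 pathway genes higher and 1 to 4 lower. The lowest of these, 3872 and 1, came without normal liver replicate 2, when Ltbp1, Ltbp2, Smad7 and Zfyve9 were no longer called, and 3 pathway genes were lower without normal liver replicate 3 or tumor replicate 1. Furin was called again only without tumor replicate 2, and Tgif1 only without normal liver replicate 1 or 3. The 2 lower genes came without tumor replicate 1, when Inhbe was called. Inhba ranged from -0.04, without normal liver replicate 2, to 0.34. The causes were not tested.

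With the replicate number as a block, 5417 genes were called, 4 of the 10 genes were higher and 1 lower as without it, and 8 pathway genes were higher and 7 lower, with Tgif1 no longer called and Nrros, Lefty2 and Smad6 called. Same-numbered samples deviated together with correlations of 0.069, 0.132 and 0.051, and differently numbered ones with -0.139 to 0.055. Deviations from means of 3 arrays cannot settle whether the numbers pair the samples. The labels do not say that they do, so the samples were not treated as paired. Slide as a block was not run because each slide held 1 group. Low signal limits, among others, the second probes of Tgfb2, Tgfbr2 and Cdkn2b, and Ltbp1 and Pmepa1. These were not well above background on some or all arrays of a group.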
